A study of Mus musculus with 32 samples.

Results

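The chemokine ligands and their receptors were followed across cells of the mouse liver and tumor cells of a colorectal cancer (CRC) model of liver metastasis. The members were all array probes whose gene name begins with Ccl, Cxcl, Ccr or Cxcr and a number, together with Xcl1, Xcr1, Cx3cl1, Cx3cr1, Pf4 and Ppbp, whose products belong to the same family. This gave 74 of the 55681 probes, for 57 of 34821 named genes, of which 37 encode ligands and 20 receptors. A single probe stood for 45 of the genes and several for the other 12. The 57 genes were 20 CC ligands, 15 CXC ligands (Pf4 and Ppbp among them), 2 XC or CX3C ligands, 11 CC receptors, 7 CXC receptors and 2 XC or CX3C receptors.

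Male Balb/c mice of 6 to 8 weeks received syngeneic C26 colon carcinoma cells into the spleen, from which the cells reach the liver, and control mice received PBS. After 14 days by the methods, or 15 by a figure legend, endothelial, Ito and Kupffer cells were separated from collagenase-perfused livers by density and adherence, cultured, and used within 24 hours. The groups, of 4 replicates each, were control and tumor microenvironment (TME) endothelial cells (EC, ET), Ito cells (IC, IT) and Kupffer cells (KC, KT), tumor liver metastasis cells (TM) and CRC primary cells (TP). The methods call the replicates biological, and how the TM and TP cells were obtained, and how many animals made a replicate, is not given in the sources used here. Kupffer cells are the resident macrophages of the liver, Ito cells its vitamin A storing stellate cells, and the endothelial fraction holds the lining of its blood spaces. The tumor is the descendant of 1 cell line, and the liver cells were fractions and not pure cells.

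Chemokines are small secreted proteins that bind receptors coupled to G proteins on leukocytes and guide them along a gradient. The CC and CXC classes are named after the spacing of the first cysteines. CXC ligands such as Cxcl1 and Cxcl2 act on neutrophils through Cxcr2, those induced by interferon, Cxcl9 to Cxcl11, act on T and NK cells through Cxcr3, and CC ligands such as Ccl2 act on monocytes through Ccr2. In the liver the resident macrophages, sinusoidal endothelium and stellate cells are all known sources of these ligands.

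Many ligand genes lie side by side and are switched on by the NF-kappaB and interferon pathways, so the stretch before the start of 5 of them is shown. These 5, all on chromosome 5, were among the ligands that differed most between tumor cells and Kupffer cells. The sequences are the 250 bases before the start of the gene in the RefSeq table of assembly GRCm38.p6, on the strand of the gene, and come from the reference strain and not from Balb/c. They lie at chr5:90890995-90891244 (Cxcl1, plus strand), chr5:90903649-90903898 (Cxcl2, plus strand), chr5:90785851-90786100 (Cxcl3, plus strand), chr5:92348890-92349139 (Cxcl10, minus strand) and chr5:92328080-92328329 (Cxcl9, minus strand). Capitals mark every match, on either strand, to GGGNNNTTC, a letter pattern of the NF-kappaB type, or to TTTCNNTTT, a pattern of the interferon-response type.
Cxcl1: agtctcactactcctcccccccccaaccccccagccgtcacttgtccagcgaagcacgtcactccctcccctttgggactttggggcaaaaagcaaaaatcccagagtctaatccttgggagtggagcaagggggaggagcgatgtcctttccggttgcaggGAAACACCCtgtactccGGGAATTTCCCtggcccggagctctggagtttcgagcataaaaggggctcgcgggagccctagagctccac
Cxcl2: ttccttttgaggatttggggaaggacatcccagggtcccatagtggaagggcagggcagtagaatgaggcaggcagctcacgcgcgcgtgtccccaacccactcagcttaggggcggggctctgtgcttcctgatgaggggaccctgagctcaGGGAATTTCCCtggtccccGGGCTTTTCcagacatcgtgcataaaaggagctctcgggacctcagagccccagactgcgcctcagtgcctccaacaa
Cxcl3: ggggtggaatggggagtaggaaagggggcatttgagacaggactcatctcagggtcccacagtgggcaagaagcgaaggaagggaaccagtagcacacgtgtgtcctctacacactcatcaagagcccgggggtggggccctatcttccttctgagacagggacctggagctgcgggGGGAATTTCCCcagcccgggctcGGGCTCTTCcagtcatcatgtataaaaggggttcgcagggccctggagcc
Cxcl10: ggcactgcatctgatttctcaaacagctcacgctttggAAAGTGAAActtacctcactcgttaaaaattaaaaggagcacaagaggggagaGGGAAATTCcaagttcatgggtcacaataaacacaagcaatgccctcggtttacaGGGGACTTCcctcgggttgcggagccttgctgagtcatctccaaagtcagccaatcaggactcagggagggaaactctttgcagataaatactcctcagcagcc
Cxcl9: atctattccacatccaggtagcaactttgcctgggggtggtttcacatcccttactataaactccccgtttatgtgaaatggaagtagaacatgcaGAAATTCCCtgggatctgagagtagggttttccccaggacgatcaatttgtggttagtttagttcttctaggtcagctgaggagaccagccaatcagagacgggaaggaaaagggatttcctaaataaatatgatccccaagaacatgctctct
Cxcl1, Cxcl2 and Cxcl3 hold the same letters, GGGAATTTC, at -71 to -63, -97 to -89 and -73 to -65 from the start, and at each the pattern overlaps itself on the opposite strand, while 1 further match lies elsewhere in each stretch. Cxcl10 holds 2 such matches, at -159 to -151 and -104 to -96, and a match to the interferon-type pattern at -212 to -204. The Cxcl9 stretch holds 1 match, on the opposite strand at -154 to -146, which is lost when the pattern is lengthened by another C. Counted over windows from 250 bases before to 50 after the start, both strands, GGGNNNTTC was present in 14% of 32851 promoters and in 15 of the 42 chemokine genes with a promoter in the table, namely Ccl1, Ccl17, Ccl20, Ccl9, Ccr3, Ccr6, Cxcl1, Cxcl10, Cxcl2, Cxcl3, Cxcl9, Cxcr2, Cxcr3, Cxcr4 and Xcl1. TTTCNNTTT was present in 10.6% of promoters and in 5 chemokine genes, Ccl19, Ccl28, Ccr1, Cxcl10 and Cxcl14. With 1 more C at the end, the forms searched first, the patterns were in 5.56% and 3.44% of promoters and in 9 and 3 chemokine genes. A match is a description of letters and not a measured binding site.

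The values are log2 intensities of the normalized table that the authors deposited, with the 4 values of a group in the order of replicates 1 to 4. Levels of a probe are compared between groups and never with those of another probe. A probe was called at an adjusted p under 0.05 in limma with Benjamini-Hochberg adjustment over all 55681 probes, and all 74 member probes were tested without a filter. Well above background means a spot that the scanner software marks so in that channel. If no array of the dimmer group passed that mark for a probe, only a bound is given ("at least N-fold"). It sets the average of the brighter group against that of the dim arrays, after loess within and Aquantile between arrays, and is open to dye bias. Each dim array entered with the probe's own signal or the faintest signal that still passed there, whichever was larger. With a mark on some arrays of a group but not all, the number of arrays is given, and a log2 difference rests in part on background values and measures no exact fold.

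Control and TM samples were all labelled with Cy3 and the TME and TP samples with Cy5, and same-numbered control and TME samples, or TM and TP, shared an array. The dye therefore cannot be told apart from the TME or from the tumor group. The Kupffer and tumor arrays lay on slide 2 and the endothelial and Ito arrays on slide 1, so that Kupffer against the other liver cells cannot be told apart from the slide, while TM against KC and TP against KT shared both dye and slide. On array 4 of the Ito and of the Kupffer cells the TME minus control differences opposed those of the other arrays, with a correlation with their mean of -0.66 and -0.60 over 17105 probes detected everywhere (probes are no replicates). No label was changed for this, and results without replicate 4 are given beside those with it. The fractions were checked with marker lists. The sum of a list is the log2 of the summed intensities of its genes, so that its brightest genes weigh most. Among control fractions that of 9 endothelial markers was highest in EC (15.80 to 16.04 in EC, 14.42 to 15.29 in IC, 14.38 to 14.95 in KC), and 8 macrophage markers reached 16.39 to 18.68 in IC and 16.18 to 18.96 in KC against 15.19 to 15.82 in EC. All 9 endothelial and 8 macrophage markers were well above background in all 24 liver channels. The 9 Ito markers summed to 11.12 to 11.45 in IC and to 11.99 to 12.75 in EC, and 8 of the 9 had a lower mean in IC than in EC, with 0 called. Lrat, the retinol esterifying enzyme of Ito cells, was the 1 higher. It averaged 4.16 in IC, 3.47 in EC and 3.62 in KC, and was well above background on 2, 1 and 2 of 4 arrays. Most of these markers thus go against the Ito label, and the fraction is called Ito only as labelled. The study also checked the fractions by immunostaining for a protein of each cell type, which is not analysed here. Hepatocyte markers summed to 17.02 to 18.71 in IC against 14.91 to 15.10 in EC, and 4 erythroid markers to 14.76 to 16.61 in IC, 12.80 to 13.32 in KC and 10.51 to 11.76 in EC, with 3 of the 4 called higher in IC than in EC. In the tumor cells Krt20 and Krt18, keratins of intestinal epithelium, were well above background on all 8 arrays and the epithelial adhesion genes Epcam and Cdh1 on none. Krt18 was also detected on all liver arrays and does not mark the tumor cells here. It averaged 12.27 in EC, 11.36 in ET, 12.02 in IC and 13.13 in IT against 10.74 in TM and 10.91 in TP. Krt8 was detected on all liver and TP arrays and on 2 of 4 TM arrays. Cd3e and Lck, the brightest T cell markers in the liver fractions, were also detected on all tumor arrays. Cd3e averaged 9.65 in TM and 9.65 in TP, and Lck 8.61 and 9.60. T cell markers summed to 10.06 to 10.51 in TM and 10.15 to 11.06 in TP, so that this sum does not mark T cells alone here.

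Chemokine transcripts were widespread in the liver fractions and fewer in the tumor cells. Of the 74 probes, 36 (48.6%) were well above background in all 24 liver channels, against 36.1% of all probes on the array. In all 8 tumor channels 16 (21.6%) were detected, against 34.8% of all probes. The pattern of detection in every liver channel and in no tumor channel was held by 9 member probes (12.2%), against 1.24% of all probes, and the reverse pattern by 0 member probes. By class, 14 of 28 CC ligand and 15 of 19 CXC ligand probes were detected in all liver channels, but 4 of 13 CC receptor, 3 of 8 CXC receptor and 0 of 4 XC or CX3C receptor probes. In the tumor channels 10 CC ligand, 5 CXC ligand, 1 CXC receptor and 0 CC receptor probes were detected throughout. The 5 genes not well above background in any channel were Ccl20, the gut and liver ligand of Ccr6, Ccl28, Ccr4, Cxcl17 and Cxcr1. In bulk samples such as these, fewer cells of a type and less RNA per cell cannot be told apart.

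**Figure D1:**
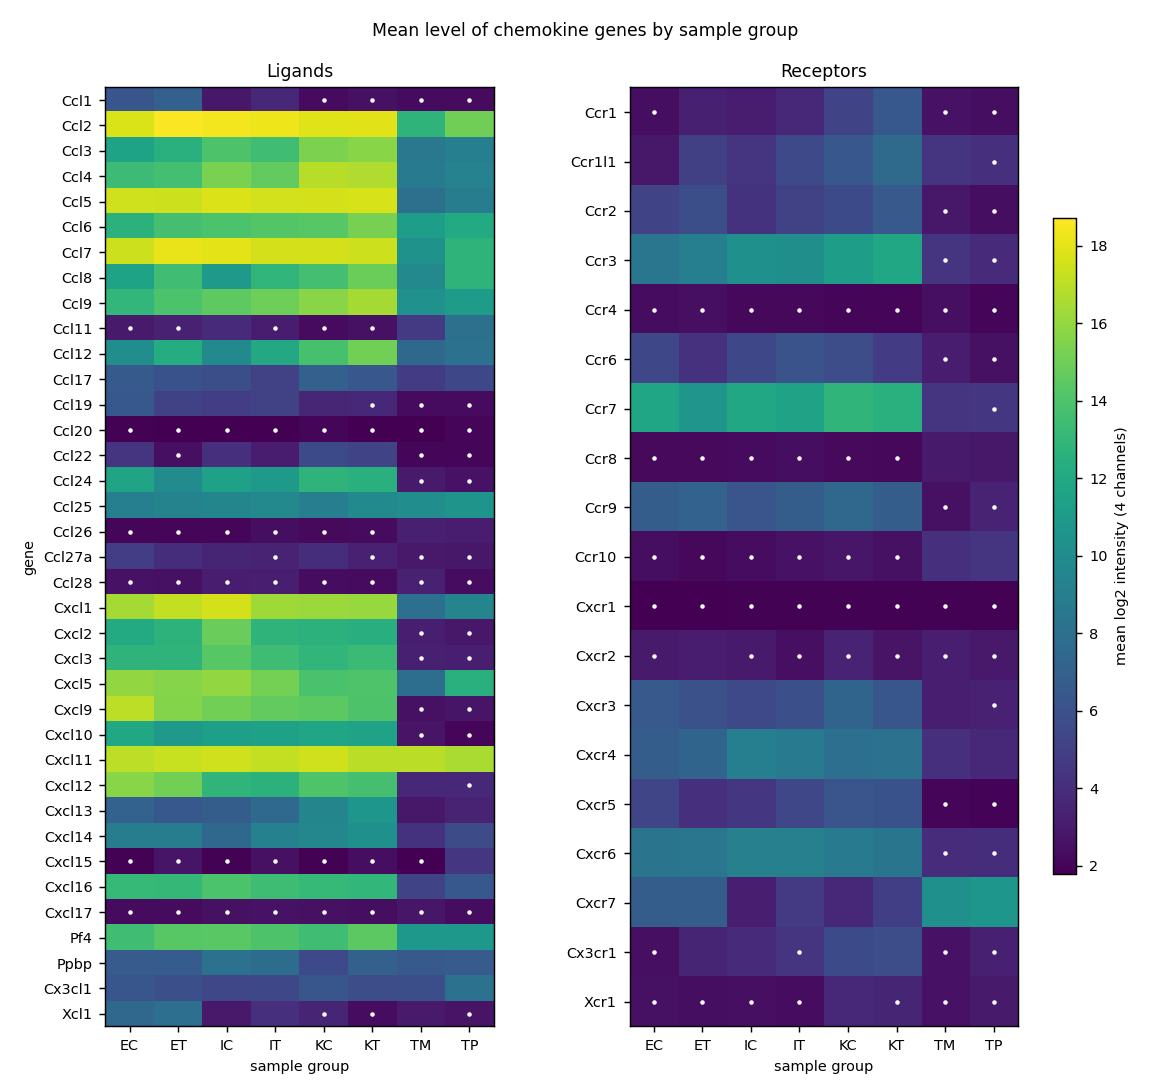
Mean log2 intensity of 56 of the 57 chemokine genes (rows, left ligands, right receptors, 1 probe per gene) in the 8 sample groups (columns, mean of 4 channels), with white dots where 0 of the 4 arrays had the probe well above background. Colours are to be read along a row, since probes differ in brightness; rows such as Ccl5, Cxcl9 and Ccr7 darken in the TM and TP columns, whereas Cxcr7 brightens there.

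Between control Ito and control endothelial cells 15 member probes were called, 5 higher and 10 lower in IC, with 9.89% of all probes called (4.17% higher and 5.72% lower). Cxcl12, the stromal ligand that retains leukocytes and stem cells, had 15.06, 16.31, 16.49 and 14.95 in EC and 13.38, 13.65, 13.43 and 11.11 in IC. All EC samples lay above all IC samples. The log2 difference was -2.81 ± 0.69 (SE, n = 4 per group, limma adjusted p = 0.0082), and a second probe gave -2.90 ± 0.52 (adjusted p = 0.000417). The interferon-induced Cxcl9 had 17.71, 16.37, 16.22 and 17.81 in EC and 14.83 to 15.41 in IC. The groups did not overlap and differed by -1.95 ± 0.47 (limma adjusted p = 0.00713), which was 0.0598 without replicate 4. Xcl1, the lymphotactin of NK and T cells, had 6.70, 8.27, 8.41 and 6.48 in EC and 2.03, 2.58, 2.68 and 4.54 in IC, where 1 of 4 arrays was well above background. It differed by -4.51 ± 0.93 (limma adjusted p = 0.00164). Ccl1, a T cell ligand of Ccr8, stood at 5.31, 7.40, 7.17 and 5.50 in EC and at 2.21, 4.93, 2.18 and 2.21 in IC. Its log2 difference was -3.46 ± 0.81 (limma adjusted p = 0.0055), with IC replicate 2 alone well above background. NK markers, 2 of 4 of which were detected on every array in both groups, summed to 11.14 to 11.31 in EC and 8.28 to 13.12 in IC, and T cell markers (4 of 6 in EC, 2 of 6 in IC) to 10.48 to 10.71 and 9.73 to 11.39; their part in the Xcl1 and Ccl1 differences was not tested.

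Cxcl2 and Cxcl3, ligands of the neutrophil receptor Cxcr2, were called higher in IC than in both other fractions. Cxcl2 had 12.18, 12.12, 12.06 and 12.23 in EC, 15.47, 15.36, 15.35 and 13.16 in IC and 13.45, 13.39, 11.67 and 12.03 in KC. IC exceeded EC in every sample, by 2.69 ± 0.74 (limma adjusted p = 0.0192), and was overlapped by KC only through IC replicate 4, with a KC minus IC difference of -2.20 ± 0.74 (limma adjusted p = 0.0456). Cxcl3 had 13.09, 12.56, 12.51 and 13.10 in EC, 14.62, 14.67, 14.55 and 13.48 in IC and 13.04, 13.14, 12.27 and 13.29 in KC. IC lay above both other groups in every sample, by 1.51 ± 0.43 over EC (limma adjusted p = 0.0214), while KC minus IC was -1.40 ± 0.43 (limma adjusted p = 0.0258). Cxcl1, the third of these neighbours, had 16.60, 16.59, 16.07 and 16.47 in EC, 18.16, 17.91, 18.04 and 16.35 in IC and 16.65, 16.68, 15.73 and 15.57 in KC. Only IC replicate 4 fell among the other groups, and neither comparison was called (limma adjusted p = 0.397 for IC against EC and 0.207 for KC against IC). The platelet basic protein Ppbp had 8.10, 7.95, 8.15 and 8.11 in IC and 5.48, 5.12, 3.66 and 7.87 in KC. The groups did not overlap, and KC minus IC was -2.55 ± 0.70 (limma adjusted p = 0.0124). Ppbp was well above background on 3 of 4 KC arrays. The 4 platelet markers, none of them detected in all 24 liver channels, summed to 6.36 to 7.70 in IC and 5.92 to 10.23 in KC. Only Itga2b was detected on every IC array and only Gp6 on every KC array. Gp6 averaged 3.87 in IC and 6.33 in KC, and Itga2b 6.20 and 5.23.

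Of the member probes 22 were called between control Kupffer and control endothelial cells, 14 higher and 8 lower in KC (21% of all probes called, 8.95% higher and 12.1% lower), and 14 between control Kupffer and control Ito cells, 10 higher and 4 lower (14.8% of all probes called, 7.24% higher and 7.57% lower). Ccl3, a macrophage inflammatory protein that binds Ccr1, had 11.53, 11.73, 11.58 and 11.49 in EC, 14.05, 13.97, 14.10 and 13.91 in IC and 15.35, 15.39, 14.92 and 15.69 in KC. The 3 groups formed separate steps. The IC minus EC difference was 2.43 ± 0.64 (limma adjusted p = 0.0141) and the KC minus EC difference 3.75 ± 0.64 (limma adjusted p = 9.02e-05), whereas KC minus IC, 1.33 ± 0.64, was not called (limma adjusted p = 0.191). Its neighbour Ccl4 had 13.53, 13.25, 13.33 and 13.54 in EC, 15.19, 15.29, 15.29 and 15.49 in IC and 17.00, 17.05, 16.68 and 16.75 in KC. It formed the same 3 steps, with KC minus EC at 3.46 ± 0.74 (limma adjusted p = 0.000983) and no call in the other comparisons (limma adjusted p = 0.114 for IC against EC and 0.18 for KC against IC). Ccl9, another Ccr1 ligand, had 12.85, 13.11, 13.17 and 12.84 in EC, 13.85, 14.15, 13.99 and 16.06 in IC and 15.25, 15.21, 15.37 and 16.86 in KC. KC lay above EC in every sample by 2.68 ± 0.68 (limma adjusted p = 0.00469). The monocyte ligand Ccl12 had 10.41, 9.72, 9.79 and 10.33 in EC, 8.55, 8.28, 8.55 and 13.92 in IC and 13.70, 13.82, 12.19 and 15.47 in KC. KC exceeded EC throughout, by 3.73 ± 1.32 (limma adjusted p = 0.0436), and IC except its replicate 4, by 3.97 ± 1.32 (limma adjusted p = 0.0415). Ccl24, an eosinophil ligand of Ccr3, had 11.35, 11.42, 11.40 and 11.66 in IC and 13.32, 13.23, 12.17 and 12.40 in KC, a separation of 1.32 ± 0.45 (limma adjusted p = 0.0455, 0.0599 without replicate 4).

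Other ligands did not separate the resting fractions. Ccl2, the monocyte attractant, had 17.84, 18.20, 17.47 and 17.38 in EC, 18.68, 18.51, 18.51 and 17.95 in IC and 18.45, 18.25, 17.58 and 17.11 in KC, near the top of the table at 18.68, where differences are compressed. The groups overlapped, and KC minus EC was 0.12 ± 0.66 (limma adjusted p = 0.956). Ccl5, a ligand of Ccr1 and Ccr3, lay between 16.89 and 18.16 in all 12 control samples. Its KC minus EC difference was 0.09 ± 0.34 (limma adjusted p = 0.935). Cxcl16, the membrane-bound ligand of Cxcr6, lay between 12.71 and 14.06 and Cxcl10, an interferon-induced ligand of Cxcr3, between 11.18 and 12.57, without a call in the 3 comparisons. Ccl6 lay between 12.54 and 15.91 and Pf4, platelet factor 4, which macrophages also make, between 11.84 and 14.77, likewise without a call.

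Of the 15 receptor probes detected on all 4 arrays of at least 1 control fraction, 10 had their highest mean in KC, 4 in IC and 1 in EC, and the 39 ligand probes divided into 14, 12 and 13; the difference between receptors and ligands was not tested. Of all 26937 probes detected in this way 34.1% were highest in KC, 26.2% in IC and 39.7% in EC. Between KC and EC, 5 of 13 CC receptor and 4 of 4 XC or CX3C receptor probes, 1 of them not well above background in either group, were called higher and 0 lower, and 1 of 8 CXC receptor probes was called lower. The fractalkine receptor Cx3cr1, carried by monocytes and some tissue macrophages, had 2.30, 2.57, 2.81 and 2.28 in EC, 3.64, 3.33, 3.99 and 4.28 in IC and 5.06, 6.57, 5.63 and 5.05 in KC. It was well above background on all KC arrays, on 1 IC array and on no EC array. KC was at least 1.60-fold higher than EC (limma adjusted p = 4.07e-06) and exceeded IC by 1.77 ± 0.42 (limma adjusted p = 0.00386). Ccr1l1, a receptor gene beside Ccr1, had 3.47, 2.40, 2.12 and 3.57 in EC, 3.67, 3.53, 3.31 and 6.91 in IC and 6.41, 5.87, 5.27 and 7.88 in KC. KC lay above EC throughout, by 3.47 ± 0.68 (limma adjusted p = 0.000446). Ccr1, Ccr3 and Ccr7 were also called higher in KC than in EC, Ccr7, the homing receptor of dendritic cells, by 1.09 ± 0.30 (limma adjusted p = 0.00988), Ccr3, the eosinophil receptor, by 2.80 ± 0.73 (adjusted p = 0.00556) and Ccr1 by at least 1.55-fold. Xcr1, the receptor of Xcl1 on cross-presenting dendritic cells, was well above background on 1 KC array only, at least 1.06-fold over EC (limma adjusted p = 0.00221, 0.079 without replicate 4). Dendritic cell markers, 2 of 4 detected on every array in both groups, summed to 8.56 to 8.89 in EC and 9.62 to 10.97 in KC; their part was not tested.

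Cxcr4 and Cxcr7 both bind Cxcl12 and had opposite orders. Cxcr4, which signals through G proteins, had 6.88, 6.62, 6.57 and 7.09 in EC, 9.25, 9.32, 9.24 and 8.66 in IC and 8.18, 7.97, 7.78 and 7.97 in KC. The 3 groups did not overlap, and IC exceeded EC by 2.33 ± 0.63 (limma adjusted p = 0.0163), while KC minus EC, 1.18 ± 0.63, was not called (limma adjusted p = 0.211). Cxcr7, which takes Cxcl12 up without such signalling, had 7.24, 6.26, 6.39 and 7.25 in EC, 2.17, 2.14, 2.25 and 6.22 in IC and 3.35, 3.01, 3.17 and 5.07 in KC. EC was above the others throughout, with well above background signal on 1 array of IC and 1 of KC, the fourth in each. The differences were -3.59 ± 0.71 for IC (limma adjusted p = 0.00114) and -3.13 ± 0.71 for KC (limma adjusted p = 0.00178). Ccr2, the receptor of Ccl2, had 5.56, 4.61, 5.23 and 5.67 in EC, 3.75, 3.37, 3.95 and 5.95 in IC and 4.87, 4.72, 5.58 and 7.23 in KC. No comparison was called, but without replicate 4 IC was lower than EC by -1.44 on the log2 scale (limma adjusted p = 0.0105) and KC higher than IC by 1.37 (limma adjusted p = 0.0119). Cxcr5, the B cell receptor of Cxcl13, had 4.46, 3.80, 4.11 and 5.58 in IC and 6.12, 5.78, 7.05 and 5.99 in KC. KC lay above IC by 1.75 ± 0.42 (limma adjusted p = 0.0043), and B cell markers, 4 of 4 detected on every IC array and 3 of 4 on every KC array, summed to 9.10 to 9.60 in IC and 7.65 to 10.41 in KC. Cxcr6 and Ccr6 were not called in these comparisons, and Cxcr2, the neutrophil receptor, was not well above background on any of the 12 control arrays.

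**Figure D2:**
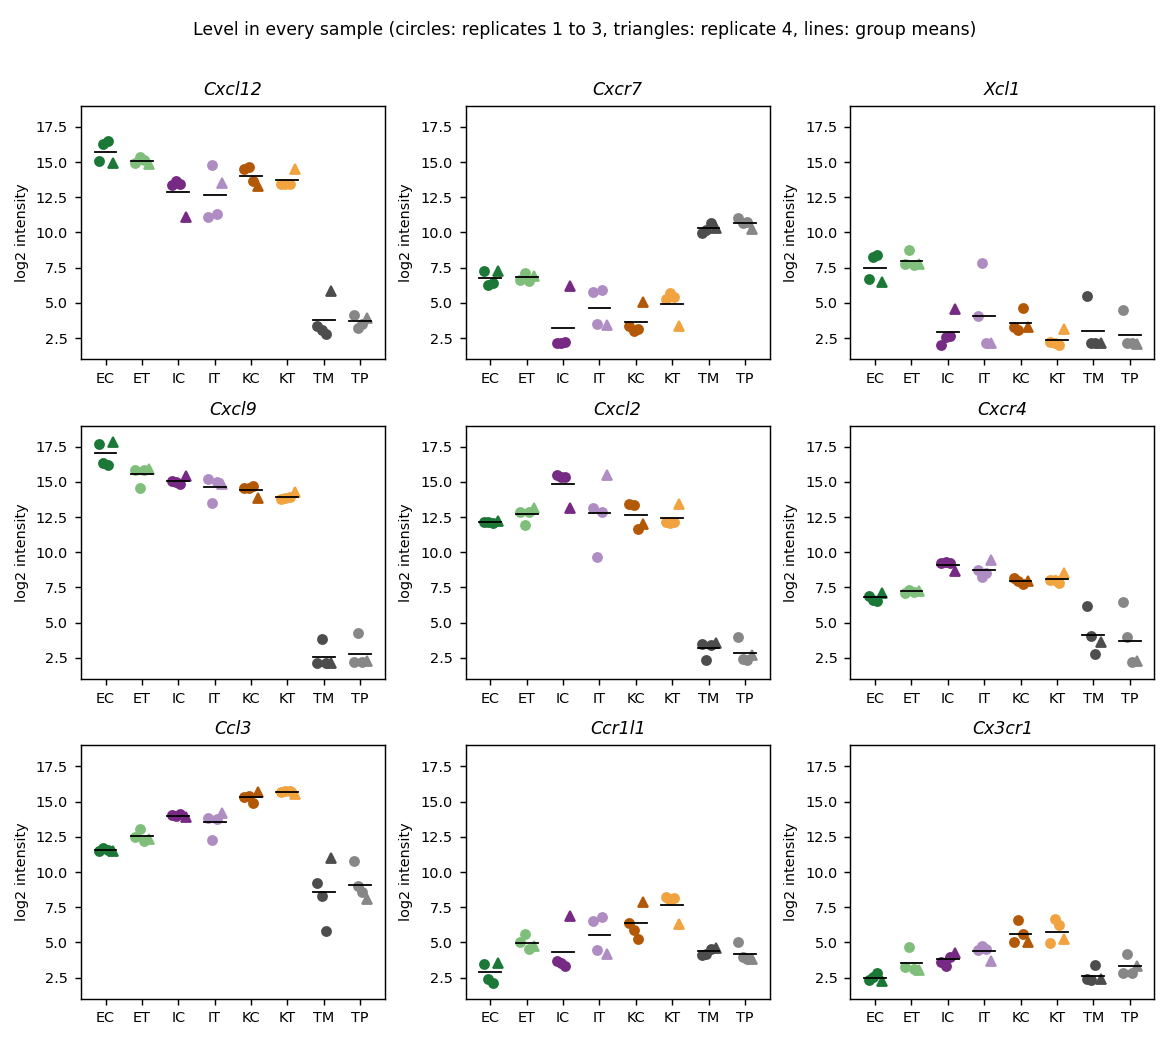
Log2 intensity of 9 chemokine genes in all 32 samples by group, with circles for replicates 1 to 3, triangles for replicate 4 and a line at the mean of 4. Ccl3 climbs in steps from EC over IC to KC, Cxcr7 is at 9.98 to 11.05 in the tumor cells, and the triangles of IC and IT often lie apart from the circles.

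The same comparisons among TME samples, labelled with the other dye, bear on the control calls. Of the 22 control calls for Kupffer against endothelial cells 17 (77.3%) were also called with the same sign among TME samples, which is 81.0% of the 21 called there, and all 22 had the same sign. For Kupffer against Ito cells it was 8 of 14 (57.1%, and 80.0% of the 10 TME calls), and for Ito against endothelial cells 5 of 15 (33.3%, and 83.3% of the 6 TME calls). Background rates of TME calls were 21.8%, 15.2% and 8.26%. Slides were the same in both, and the cell types with them. Leaving out replicate 1, 2 or 3 lowered the control calls for Kupffer against Ito cells from 14 to 2, 6 or 3, and leaving out replicate 1 or 3 those for Ito against endothelial cells from 15 to 6 or 7. The shares of all probes called in these fits are not given, so whether the drop is particular to the members is not known. Among the genes called with the same sign in controls and in TME samples were Cxcl12, Xcl1, Ccl1 and Ccl27a for Ito against endothelial cells. Ccl3, Ccl4, Ccl9, Ccr3 and Cxcl9 were among those for Kupffer against endothelial cells alone, and Cx3cr1, Ccr1, Ccr1l1, Ccr7, Ccl22, Xcr1 and a Ccl19 probe were called in both conditions in both Kupffer comparisons. Cxcl13, the follicle ligand of Cxcr5, was called only among TME samples, with 6.39, 7.20, 5.82 and 6.52 in ET and 11.07, 11.17, 11.24 and 9.16 in KT, a difference of 4.18 ± 1.13 (limma adjusted p = 0.00759).

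Genes outside the family that carry its signal were mostly higher in Kupffer cells. Of 24 genes of chemokine signal transduction 16 were called higher and 3 lower in KC than in EC, with a median log2 difference of 1.71 against 0 over all probes, and 12 higher and 2 lower in KC than in IC (median 1.33). Dock2, the exchange factor that turns leukocytes, was higher in KC than in EC by 2.80 (limma adjusted p = 0.00102), and Rac2, its GTPase, by 2.77 (adjusted p = 0.00229). Pik3cg, the kinase under chemokine receptors, differed by 1.96 (adjusted p = 0.00367). Of 8 macrophage markers 5 were called higher in KC than in EC (median 2.38) and 0 between KC and IC by limma (0 at an unadjusted p under 0.05, median 0.62), and their part was not tested. Among the 4 scavenging and decoy receptors, which bind chemokines without guiding cells, Darc averaged 13.37 in EC, 10.64 in IC and 10.47 in KC, and differed by -2.73 for IC (limma adjusted p = 0.00129) and by -2.90 for KC (adjusted p = 0.000278). Ccbp2 was highest in IC at 11.52 and lower in KC by -1.79 (limma adjusted p = 0.00819), Ccrl2 was higher in KC than in EC by 1.12 (adjusted p = 0.00106), and Ccrl1 was not well above background in any group. Of 5 inducers of ligands, Nfkb1, Rela, Nfkbia and Irf1 among them, 0 were called between control fractions by limma, with 1 higher at an unadjusted p under 0.05 in each of the 3 comparisons.

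In the tumor microenvironment few chemokine probes were called by limma, whose error is shared by all 8 groups. Between ET and EC 2 of 74 member probes were called, both lower in ET, with 1.14% of all probes called and 0.564% lower. Ccl22, a macrophage and dendritic cell ligand of Ccr4, had 4.45, 4.64, 4.25 and 4.16 in EC, where 3 of 4 arrays were well above background, and 2.56, 3.40, 2.03 and 2.04 in ET, where none was. ET was lower on every array, by at least 1.28-fold (limma adjusted p = 0.0157, 0.00618 without replicate 4), and with the array as a block the adjusted p was 0.144. A probe of Ccl19, the ligand of Ccr7, had 5.88, 6.21, 5.86 and 6.18 in EC and 5.58, 5.21, 4.96 and 5.44 in ET. The groups were apart by -0.73 ± 0.17 (limma adjusted p = 0.0242, 0.124 without replicate 4, 0.112 with the array as a block), and near-identical copies of Ccl19 in the mouse genome make its identity uncertain. Cxcl9 was called only with the array as a block. It had 15.86, 14.57, 15.86 and 15.94 in ET against 17.71, 16.37, 16.22 and 17.81 in EC and was lower on 4 of 4 arrays, by -1.47 ± 0.47 (limma adjusted p = 0.184, 0.0385 with the block). Ccr1l1 had 5.05, 5.60, 4.51 and 4.73 in ET, above all EC samples, with a difference of 2.08 ± 0.68 (limma adjusted p = 0.206) that was called only without replicate 4, at 2.39 (adjusted p = 0.0306).

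Ccl12 separated EC and ET without a call. It had 12.31, 13.16, 11.71 and 11.92 in ET against 10.41, 9.72, 9.79 and 10.33 in EC, a difference of 2.21 ± 1.32 (limma adjusted p = 0.863), the error being shared with the widely spread Ito and tumor groups. Ccl24 had 10.17, 10.11, 9.48 and 10.02 in ET, below all EC samples, with -1.70 ± 0.45 (limma adjusted p = 0.0611). Ccl3, Ccl6, Ccl9, Ccl2 and Cxcl1 were likewise without overlap and with higher values in ET, by 0.95 ± 0.64, 1.05 ± 0.81, 0.93 ± 0.68, 0.86 ± 0.66 and 0.71 ± 0.73, and limma adjusted p-values of 0.962 to 1. Other members did not overlap either, such as Ccl17, lower in ET by -0.52 ± 0.43, and the leading Ccl25 probe, higher by 0.30 ± 0.25. The share of all probes without overlap is not given, so the lack of overlap is no result about the members. Fitted to EC and ET alone, the member calls were 13 in place of 2. The share of all probes called in that fit is not given, so this count is no result about the members. Neutrophil markers summed to 8.88 to 9.66 in EC (2 of 7 detected on every array) and 11.66 to 12.84 in ET (5 of 7). Of these, Ngp was detected on 0 EC and 4 ET arrays and Cd177 on none of either. NK markers summed to 11.14 to 11.31 and 13.03 to 14.66 (2 of 4 in both, with Ncr1 on 2 EC and 3 ET arrays and Klrb1c on 0 and 1), and macrophage markers to 15.19 to 15.82 and 15.97 to 16.60 (8 of 8 in both). T cell markers summed to 10.48 to 10.71 and 10.73 to 11.44, and platelet markers to 6.60 to 6.88 and 6.94 to 7.82. These 5 sums were higher in every ET than in every EC sample. Gene by gene, the ET mean was higher for 7 of 7 neutrophil, 4 of 4 NK, 6 of 8 macrophage, 5 of 6 T cell and 2 of 4 platelet markers. Lower in every ET sample were the sums of B cell markers, at 9.03 to 9.14 in EC and 6.64 to 9.0 in ET (4 of 4 genes lower), and of endothelial markers, at 15.80 to 16.04 and 14.99 to 15.57 (8 of 9 lower). By limma 0 genes of any of these marker lists were called between ET and EC. The part of these cell types in the chemokine differences was not tested.

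In Ito cells 7 member probes (2 up and 5 down) had an unadjusted limma p under 0.05 between IT and IC. Of all 55681 probes 3071 were up and 2430 down at that threshold, so this count is no result about the members. After adjustment 0 member probes were called by limma, against 0.289% of all probes, and 1 by the methods' t-test. Without replicate 4 limma called 11, 7 higher and 4 lower, against 7.83% of all probes (3.94% higher and 3.89% lower). Ccl12 had 8.55, 8.28, 8.55 and 13.92 in IC and 13.88, 11.92, 13.72 and 8.61 in IT. Arrays 1 to 3 differed by 3.64 to 5.34 and array 4 by -5.30, which gave 2.21 ± 1.32 over 4 arrays (limma adjusted p = 0.591) and 4.71 without replicate 4 (adjusted p = 0.00613). Ccl8, another monocyte ligand, had 9.77, 9.51, 9.67 and 14.48 in IC and 14.57, 12.70, 14.31 and 10.08 in IT. Again array 4 ran the other way, and without it the difference was 4.21 (limma adjusted p = 0.0273). Ccr2 followed, with 3.75, 3.37, 3.95 and 5.95 in IC, 6.17, 6.03, 5.88 and 2.27 in IT, and 2.34 without replicate 4 (limma adjusted p = 0.000425). So did Cxcr7, at 2.17, 2.14, 2.25 and 6.22 in IC and 5.77, 3.47, 5.89 and 3.42 in IT, by 2.86 without replicate 4 (limma adjusted p = 0.000621). Ccr1l1, Cxcl14 and Cxcr5 were also called higher without replicate 4, by 2.43, 3.15 and 1.66 (limma adjusted p = 0.00638, 0.0337 and 0.0219). The neutrophil ligands went the opposite way. Cxcl2 had 15.47, 15.36, 15.35 and 13.16 in IC and 13.12, 9.65, 12.88 and 15.52 in IT, -2.05 ± 0.74 over 4 arrays (limma adjusted p = 0.367) and -3.51 without replicate 4 (adjusted p = 0.00437). Cxcl3 and Ccl22 were called lower with it, by -1.57 and -1.93 (limma adjusted p = 0.0277 and 0.000821). So was 1 of 4 Ccl25 probes, not the leading one, by -0.80 (limma adjusted p = 0.00807). Neutrophil markers summed to 9.40 to 13.80 in IC and 9.76 to 13.69 in IT (3 of 7 on every array in both), and T cell markers to 9.73 to 11.39 and 10.09 to 12.77; their part was not tested.

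In Kupffer cells 3 member probes (2 up and 1 down) had an unadjusted limma p under 0.05, against 1972 up and 2134 down of all 55681 probes. After adjustment 0 were called by limma, against 0.436% of all probes, and 0 by the methods' t-test. Without replicate 4 limma called 6, 5 higher and 1 lower, against 3.45% (1.6% and 1.85%). Ccr2 had 4.87, 4.72, 5.58 and 7.23 in KC and 7.11, 7.09, 7.09 and 4.72 in KT. Values of replicate 4 lay where those of the other condition did, and the difference was 0.90 ± 0.72 with them (limma adjusted p = 0.876) and 2.04 without (adjusted p = 0.00321). Ppbp had 5.48, 5.12, 3.66 and 7.87 in KC, well above background on 3 of 4 arrays, and 7.63, 7.64, 7.43 and 5.30 in KT. The difference was 1.47 ± 0.70 over 4 arrays (limma adjusted p = 0.67) and 2.81 without replicate 4 (adjusted p = 0.0153). Ccr1l1, Cxcr7 and Ccl25 were called higher without it, by 2.25, 2.28 and 1.22 (limma adjusted p = 0.0192, 0.008 and 0.0135), and Cxcl11, the third Cxcr3 ligand, lower by -0.88 (adjusted p = 0.018). For Ccl25 this was the leading probe alone of 4. Ccl12 differed by 1.76 to 3.30 on arrays 1 to 3 and by -1.80 on array 4, without a call with or without it. The TME changes were then compared between cell types. No member was called by limma, against 0.111% of all probes for Ito minus endothelial cells, 0.0808% for Kupffer minus endothelial and 0.00359% for Kupffer minus Ito. At an unadjusted p under 0.05 were 6, 5 and 2 member probes in the 3 comparisons. The share of all probes at that threshold is not given, so these counts are no result about the members. Without replicate 4 (1.05% of all probes called) the change was larger in Ito than in endothelial cells for Cxcr5, by 3.08 (limma adjusted p = 0.0165), and Cxcr7, by 2.72 (adjusted p = 0.0426). The signalling, decoy and inducer lists had 0 calls between TME and control in any of the 3 cell types by limma, with at most 5 of 24, 2 of 4 and 1 of 5 genes at an unadjusted p under 0.05.

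**Figure D3:**
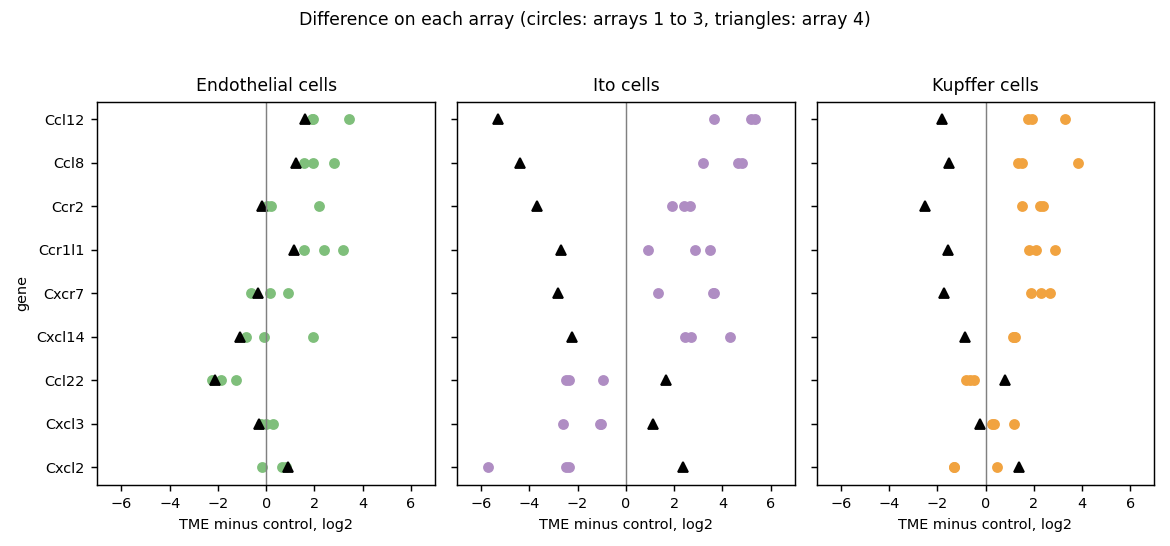
TME minus control difference (log2, x axis) of 9 chemokine genes on each of the 4 arrays of endothelial, Ito and Kupffer cells, with circles for arrays 1 to 3 and a triangle for array 4. In Ito cells the triangle lies on the other side of 0 from all circles for every gene drawn, as for Ccl12 with 3.64 to 5.34 against -5.30, and in endothelial cells the 4 arrays share a sign for Ccl12, Ccl8, Ccr1l1 and Ccl22.

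The largest contrast was between tumor cells and Kupffer cells, in which dye and slide were shared. TM against KC had 49 called member probes (39.4% of all probes called), 44 lower and 5 higher in TM, whereas of all probes 16.2% were lower and 23.3% higher. TP against KT had 47 (43.6% of all probes called), 41 lower and 6 higher, against 17.8% and 25.7% of all probes. The median difference of the members was -2.63 for TM and -2.23 for TP, and that of all probes 0.08 and 0.10. Both comparisons concern cells of different type, and the macrophage markers, detected in all 24 liver channels, summed to 7.66 to 9.93 in TM and 7.58 to 9.30 in TP with Clec4f, the Kupffer cell lectin, not well above background on any tumor array. With adjusted p under 0.001 and a difference of 4-fold, the thresholds the methods state, 35 and 40 member probes remained, against 14.3% and 15.9% of all probes.

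CXC ligands stood at the far end of the range. Of 19 probes 14 were lower in TM than in KC and 0 higher, with a median of -7.07, and 13 were lower and 1, Cxcl15, higher in TP than in KT (median -6.62). Cxcl15, well above background on 2 TP arrays and on no KT array, was at least 1.19-fold higher (limma adjusted p = 4.52e-06). Cxcl9 had 14.55, 14.57, 14.74 and 13.85 in KC, 13.80, 13.84, 13.90 and 14.27 in KT, 2.14, 3.83, 2.11 and 2.12 in TM and 2.19, 4.28, 2.22 and 2.29 in TP, with no tumor array well above background. It was at least 289-fold lower in TM than in KC and at least 178-fold lower in TP than in KT (limma adjusted p = 4.24e-17 and 1.23e-16). Cxcl2 had 3.46, 2.37, 3.41 and 3.53 in TM and 4.00, 2.39, 2.37 and 2.67 in TP, against 11.67 to 13.45 in the 8 Kupffer samples. Its bounds were at least 73.0-fold and at least 59.0-fold (limma adjusted p = 3.38e-11 and 2.19e-11). Cxcl3, with 2.36 to 4.24 in the 8 tumor and 12.27 to 13.45 in the Kupffer samples, was at least 86.1-fold and at least 91.1-fold lower (limma adjusted p = 3.30e-16 and 1.23e-16). The neighbouring Cxcl1 was detected in all tumor samples, with 8.30, 7.46, 6.67 and 9.58 in TM and 11.41, 10.23, 8.0 and 8.25 in TP. It lay below all Kupffer samples, by -8.15 ± 0.73 and -6.62 ± 0.73 (limma adjusted p = 3.67e-10 and 1.53e-08). These 3 genes share the NF-kappaB type letters printed above, while their levels in tumor cells differed in detection.

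The interferon-induced ligands were not alike. Cxcl10 was not well above background in tumor cells by 1 probe, at least 48.1-fold lower in TM and 37.5-fold in TP (limma adjusted p = 9.13e-18 and 3.60e-18), and by the other had 9.53, 10.99, 8.04 and 8.17 in TM and 8.15, 8.53, 11.06 and 10.26 in TP. That probe lay at 17.36 to 18.10 in all Kupffer samples and gave -8.54 ± 0.49 and -8.07 ± 0.49 (limma adjusted p = 7.86e-14 and 2.00e-13). Cxcl11, the neighbour of Cxcl9 and Cxcl10, was not called by either probe, although without replicate 4 its leading probe was called lower in TM, by -0.64 (limma adjusted p = 0.0132). It lay at 16.53 to 17.38 in TM, 16.25 to 16.83 in TP and 16.77 to 17.93 in the Kupffer samples. Cxcl12 had 3.33, 3.05, 2.80 and 5.82 in TM, where only replicate 4 was well above background, and 4.13, 3.20, 3.47 and 3.92 in TP, where none was. It was called lower in TM than in KC (limma adjusted p = 1.53e-12) and was at least 122-fold lower in TP than in KT (adjusted p = 2.03e-12). Cxcl16 had 6.0, 4.37, 4.00 and 6.62 in TM and 6.92, 7.18, 5.61 and 6.04 in TP against 12.71 to 13.57 in Kupffer cells, -7.88 ± 0.42 and -6.55 ± 0.42 (limma adjusted p = 1.50e-14 and 4.85e-13). Pf4, with 12.13, 10.15, 7.41 and 13.47 in TM and 12.51, 11.09, 10.09 and 9.56 in TP, was lower by -2.72 ± 0.79 and -3.62 ± 0.79 (limma adjusted p = 0.00633 and 0.000385), while Ppbp was not called.

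Of 28 CC ligand probes 14 were lower and 4 higher in TM than in KC, and 13 lower and 3 higher in TP than in KT (medians -1.16 and -1.0). Ccl5 had 8.52, 8.29, 7.37 and 8.12 in TM and 7.98, 8.45, 10.03 and 9.11 in TP, against 16.94 to 18.16 in the Kupffer samples. The differences were -9.51 ± 0.34 and -8.78 ± 0.34 (limma adjusted p = 4.10e-18 and 2.30e-17). Ccl3 had 9.25, 8.33, 5.80 and 10.98 in TM and 10.80, 8.99, 8.55 and 8.08 in TP, which was lower by -6.74 ± 0.64 and -6.57 ± 0.64 (limma adjusted p = 1.23e-09 and 1.72e-09). Ccl4 and Ccl9 moved alike, by -8.15 ± 0.74 and -7.39 ± 0.74 for Ccl4 and by -5.31 ± 0.68 and -5.28 ± 0.68 for Ccl9. Ccl12 was lower by -6.35 ± 1.32 and -6.91 ± 1.32 (limma adjusted p = 0.000243 and 8.01e-05), and Ccl6 by -3.11 ± 0.81 and -3.06 ± 0.81. In TM, Ccl12 was well above background on 3 of 4 arrays. Ccl2 had 14.78, 10.80, 10.55 and 15.16 in TM and 15.43, 15.06, 14.85 and 14.84 in TP, lower than in Kupffer cells by -5.02 ± 0.66 and -2.90 ± 0.66 (limma adjusted p = 3.62e-07 and 0.000625). Ccl24 was not well above background in any tumor sample, at least 84.8-fold lower in TM and at least 65.4-fold lower in TP (limma adjusted p = 6.83e-16 and 4.83e-16). Against this run, Ccl11, the eosinophil ligand eotaxin, had 2.64, 2.01, 2.07 and 2.53 in KC, 2.05, 2.86, 3.24 and 2.02 in KT, 6.80, 2.19, 1.84 and 7.95 in TM and 8.09, 8.70, 7.25 and 8.08 in TP. It was well above background on no Kupffer array, on TM arrays 1 and 4 and on all TP arrays. TP was at least 4.77-fold higher than KT (limma adjusted p = 5.67e-06) and TM at least 1.97-fold higher than KC (adjusted p = 0.0289, 0.291 without replicate 4). Ccl25, a gut and thymus ligand of Ccr9, was by its leading probe of 4 higher in TM by 1.07 ± 0.25 (limma adjusted p = 0.000874) and in TP by 0.69 ± 0.25 (adjusted p = 0.0259, 0.272 without replicate 4). None of its other probes was called, with differences of 0.11 to 0.41 in TM and 0.14 to 0.58 in TP. Without replicate 4, 1 of those was called, by 0.60 in TM and 0.50 in TP (limma adjusted p = 0.00929 and 0.0286). The Ccl19 probes disagreed, with 1 higher in both tumor groups by 2.06 and 2.42 and another lower by -1.29 and -1.42, and are not assigned a direction. The lower probe was well above background on 1 KC array and on 0 arrays of KT, TM and TP.

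Cxcr7 was the only receptor called higher in tumor than in Kupffer cells. Of 13 CC receptor probes 8 were lower in each tumor group and 0 higher, with medians of -2.62 for TM and -3.33 for TP. Ccr2 lay at 2.23 to 3.81 in TM and 2.26 to 2.53 in TP, not well above background, at least 1.53-fold and at least 1.84-fold lower (limma adjusted p = 0.00309 and 2.71e-05). Ccr6 and Cx3cr1 were not well above background in tumor cells either, at least 1.52-fold lower in TM for Ccr6 (limma adjusted p = 0.00328) and at least 1.49-fold in TM and 1.28-fold in TP for Cx3cr1 (adjusted p = 1.16e-06 and 1.47e-05). Cxcr6 by its leading probe was at least 5.18-fold and at least 4.08-fold lower (limma adjusted p = 5.30e-09 and 3.22e-08). Cxcr4 had 6.18, 4.05, 2.75 and 3.61 in TM and 6.48, 3.97, 2.17 and 2.25 in TP, where only replicate 1 of each was well above background, and 7.78 to 8.53 in Kupffer cells. It was called lower in both (limma adjusted p = 1.17e-05 and 1.33e-06). By contrast Cxcr7 had 9.98, 10.14, 10.66 and 10.35 in TM and 11.05, 10.64, 10.74 and 10.23 in TP, against 3.01 to 5.07 in KC and 3.33 to 5.68 in KT. The tumor cells lay above all liver samples, the endothelial cells at 6.26 to 7.25 included. The differences from Kupffer cells were 6.63 ± 0.71 for TM (limma adjusted p = 1.05e-08) and 5.74 ± 0.71 for TP (adjusted p = 1.18e-07). Cxcr7 was well above background on 1 KC and 3 KT arrays.

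**Figure D4:**
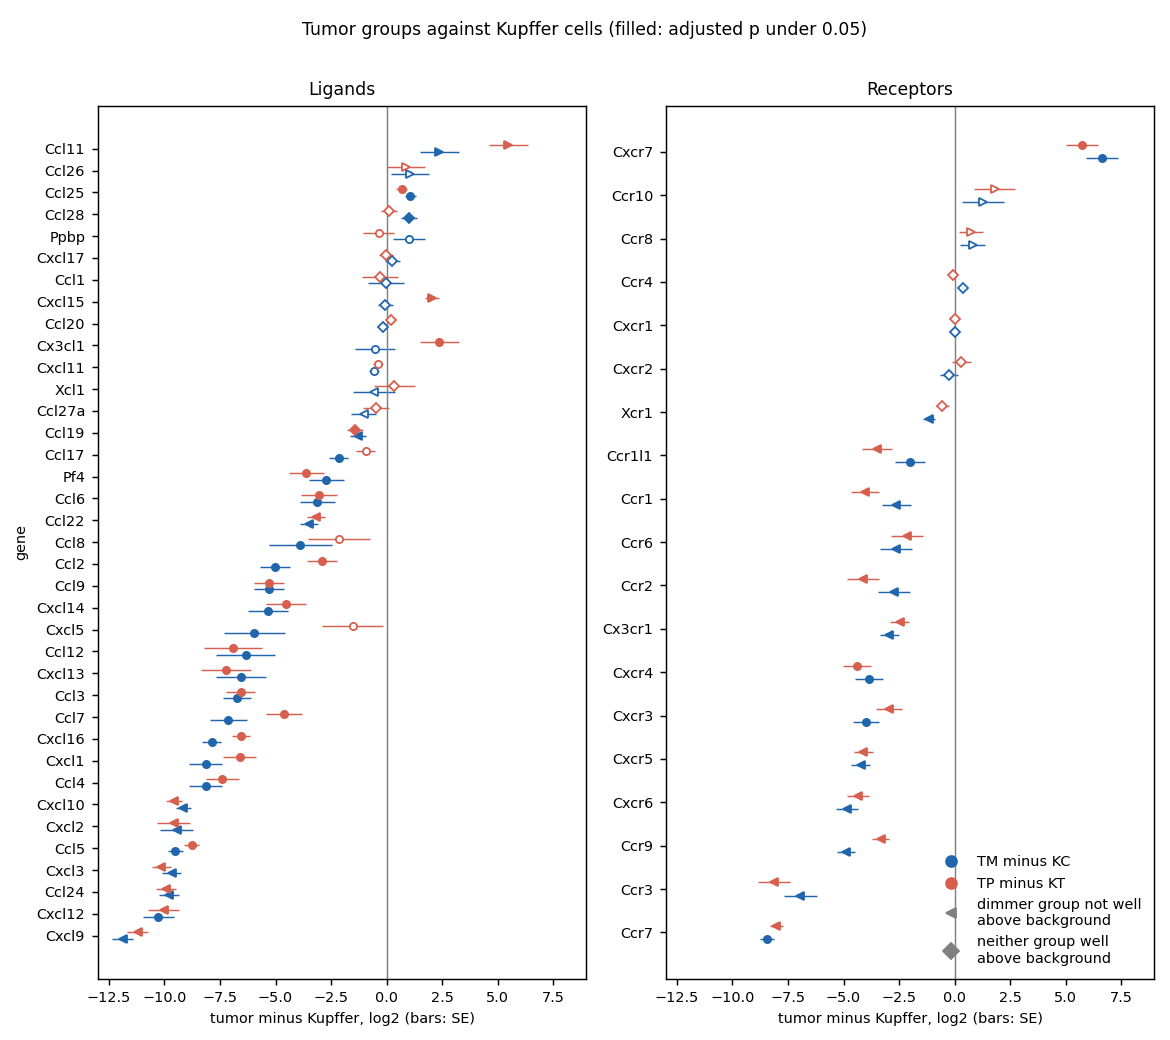
Fitted log2 difference (x axis, bars are SE) of TM against KC (blue) and TP against KT (red) for 56 of the 57 chemokine genes, 1 probe per gene, ordered by the TM difference; filled symbols were called. Triangles mark genes not well above background in the dimmer group, whose place rests on background values and measures no fold, and diamonds those not well above background in either group; Cxcr7 lies at 6.63 and 5.74 and most other called genes lie below 0.

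Most of the pathway genes outside the family were lower in tumor cells too. Of the 24 signalling genes 19 were lower and 2 higher in TM than in KC, and 20 lower and 1 higher in TP than in KT (medians -3.87 and -3.86). Of the 4 decoy receptors 3 were lower in both comparisons, Ccrl2 by -7.22 in TM (limma adjusted p = 1.05e-18). All 5 inducers of ligands were lower in both, among them Nfkbia, the inhibitor of NF-kappaB and its target, by -4.31 and -3.46, and Irf1, an interferon-response factor, by -3.86 and -3.63. Both were nevertheless well above background in the tumor cells.

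Primary and metastatic tumor cells differed in few members. Between TP and TM 2 probes were called, both higher in TP, with 3.01% of all probes called and 2.05% higher. Ccl11 (values above) had a difference of 3.34 ± 0.86 (limma adjusted p = 0.0309, 0.0153 without replicate 4). Its groups overlapped through TM replicate 4, and TM replicates 2 and 3 were at background. Cxcl15, a lung ligand of neutrophils, had 1.87, 1.83, 1.83 and 1.82 in TM and 3.62, 4.87, 4.94 and 4.49 in TP, well above background on 2 TP arrays. It was at least 1.13-fold higher in TP (limma adjusted p = 3.11e-06), a bound close to 1. TM replicates 2 and 3 were low for several ligands, as Cxcl5, a neutrophil ligand, shows with 10.65, 5.48, 2.24 and 13.26 in TM against 14.69, 13.26, 10.67 and 11.37 in TP. Ccl2 was higher in TP by 2.22 ± 0.66 without a call (limma adjusted p = 0.0633), and by 3.07 without replicate 4 (adjusted p = 0.0275). Without replicate 4, 8 probes were called, 7 higher and 1 lower, against 2.77% of all probes (1.7% and 1.08%), and with the array as a block 3, against 3.2%. The TP minus TM differences on array 1 also departed from the rest. Over 17105 probes the correlation of an array's differences with the mean of the others was -0.20 for array 1 and -0.07 for array 4. It was 0.64 for array 2 and for array 3. Cx3cl1, fractalkine, had 8.62, 1.92, 4.32 and 8.45 in TM, well above background on 2 of 4 arrays, and 7.79, 8.43, 7.99 and 8.37 in TP. TP minus TM was 2.32 ± 0.89 (limma adjusted p = 0.167). Against KT at 5.70 to 5.82, TP was higher by 2.38 ± 0.89 (limma adjusted p = 0.0309, 0.108 without replicate 4). Since TM was labelled with Cy3 and TP with Cy5, dye and tumor group cannot be told apart in this comparison.

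Some ligands are set beside their receptors here, chosen after their values were seen. Cxcl12 was highest in EC and not detected in TP, while its receptors stood highest in IC (Cxcr4) and in the tumor cells (Cxcr7). Cx3cl1 was detected on all arrays of all liver groups but IT (3 of 4), and Cx3cr1 on all arrays of KC and KT only. Xcl1 was detected on all EC and ET arrays, and its receptor Xcr1 on 1 array in all, a KC array. Ccl20 was at background everywhere, whereas Ccr6 was detected on all arrays of EC, IC and KC and on none of the tumor arrays.

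By position, 40 of the 57 genes lay in 10 groups of neighbours less than 1 Mb apart (mm9, as in the files). The 5 CC ligands at chr11:83339296-83478111, Ccl5, Ccl9, Ccl6, Ccl3 and Ccl4, were lower in both, 5 of 5. Of the 6 at chr11:81850650-81990227, Ccl2, Ccl7, Ccl11, Ccl12, Ccl8 and Ccl1, 4 and 3 were lower and 1, Ccl11, was higher in both. Of the 7 CXC ligands at chr5:91190490-91334593, Cxcl5, Ppbp, Pf4, Cxcl3, Cxcl15, Cxcl1 and Cxcl2, 5 and 4 were lower and 0 and 1 higher, and of Cxcl9, Cxcl10 and Cxcl11 at chr5:92752191-92788626, 2 of 3 in both.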

How the data were processed

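Gene expression was measured on 16 two-colour Agilent arrays, whose 32 channels are the samples, 4 in each of 8 groups taken from the labels. The authors scanned the arrays with Feature Extraction 10.7.3.1, quantile-normalized the processed signals and deposited a table of linear intensity values. Each of its 32 columns matched the scanner intensity of its own channel (lowest correlation 0.99986). The values were taken as log2 intensity, log2 being applied here to the deposited values. No spot was saturated, and 38.4% to 57.1% of spots per channel were well above background. The number of arrays limits the precision.

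All 8 groups were fitted together with limma 3.58.1 in R 4.3.3 (lmFit and eBayes), with Benjamini-Hochberg adjustment over 55681 probes and a threshold of 0.05, and Python 3.11.15 (pandas 2.3.3, numpy 2.4.6, matplotlib 3.10.9) were used for tables and plots. The fit was tested on simulated data with 200 changed probes. The most variable probe across the 32 channels stood for a gene with several. Genes named with values were, per comparison, up to 6 called members with the largest difference that were detected throughout the brighter group, and textbook chemokine genes of liver and tumor, and other genes named were chosen after their values were seen. The members, gene lists and marker lists (those of endothelial, macrophage, Ito, hepatocyte, neutrophil, T, B, NK, dendritic, platelet, erythroid and epithelial cells) were chosen with earlier results of these data known.

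Same-numbered control and TME samples shared an array in the files. Deviations from the group means correlated within endothelial pairs at 0.34 to 0.52 and within tumor pairs at 0.12 to 0.33, but at -0.29 for Ito and -0.20 for Kupffer number 4. The main fit held group means only, without pairing, and the array entered only as an alternative. Alternatives were other background corrections and scalings, a filter on dim probes, a fit of the compared groups alone, the array as a block, leaving out each replicate, the methods' t-test and the methods' thresholds. Promoter patterns were shortened by 1 base after results of the longer forms had been seen. The labels give each sample 1 dye, although a protocol speaks of both. Other data types of the study were not analysed here. A member gene and a gene of a pathway list are not reported here, although counts over lists hold them.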

Additional observations from a re-analysis of the deposited data

Results flagged for a closer look

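Among 197 gene and group sets of 4 samples, 43 had a sample whose gap to its nearest neighbour was large against the range of the set by Dixon's criterion, where chance gives about 1 in 20. Values are log2 intensities, with the range of the other 3 samples in brackets, and their causes were not tested.

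Control Ito replicate 4 was above the others for Ccl12 at 13.92 (8.28 to 8.55), Ccl6 at 14.94 (13.50 to 13.70), Ccl9 at 16.06 (13.85 to 14.15), Ccr1l1 at 6.91 (3.31 to 3.67), Cxcr6 at 9.90 (8.83 to 8.97) and Cxcr7 at 6.22 (2.14 to 2.25). It was below them for Ccl11 at 3.02 (4.02 to 4.16), Cxcl1 at 16.35 (17.91 to 18.16), Cxcl12 at 11.11 (13.38 to 13.65), Cxcl16 at 13.52 (14.01 to 14.06), Cxcl2 at 13.16 (15.35 to 15.47), Cxcl3 at 13.48 (14.55 to 14.67) and Cxcr4 at 8.66 (9.24 to 9.32). In TME Ito cells replicate 4 was low for Ccr2 at 2.27 (5.88 to 6.17). TME Ito replicate 2 was high for Ccl1 at 7.83 (2.27 to 2.31) and low for Ccl2 at 17.24 (18.57 to 18.68), Ccl24 at 9.21 (11.39 to 11.62), Ccl4 at 13.09 (15.05 to 15.23) and Pf4 at 13.19 (14.26 to 14.32), and control Ito replicate 2 was high for Ccl1 at 4.93 (2.18 to 2.21).

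TME Kupffer replicate 4 was low for Ccl12 at 13.68 (15.49 to 15.61), Ccl6 at 13.89 (15.59 to 15.74), Ccl9 at 15.57 (16.67 to 16.70), Ccr1l1 at 6.34 (7.98 to 8.20), Ccr2 at 4.72 (7.09 to 7.11), Cxcl3 at 13.04 (13.41 to 13.45), Pf4 at 13.77 (14.60 to 14.69) and Ppbp at 5.30 (7.43 to 7.64). It was high for Ccl24 at 13.22 (12.31 to 12.37), Cxcl1 at 16.61 (15.91 to 15.94), Cxcl12 at 14.53 (13.45 in all others), Cxcl16 at 13.57 (12.77 to 12.83), Cxcl2 at 13.42 (12.07 to 12.13) and Cxcr6 at 9.55 (7.89 to 8.06). Control Kupffer replicate 4 was high for Ccl6 at 15.91 (13.71 to 13.81), Ccl9 at 16.86 (15.21 to 15.37) and Cxcr7 at 5.07 (3.01 to 3.35).

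In endothelial cells EC replicate 3 was low for Ccl5 at 16.89 (17.68 to 17.73), and ET replicate 2 was low for Ccl5 at 16.49 (17.61 to 17.71) and Cxcl9 at 14.57 (15.86 to 15.94) and high for Xcl1 at 8.73 (7.67 to 7.75) and Cx3cr1 at 4.70 (3.07 to 3.27). TM replicate 1 was high for Xcl1 at 5.50 (2.13 to 2.18).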

How the results depend on the processing

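For TME against control endothelial cells the number of member probes called, in place of 2, was 6 with normexp and quantile normalization, 7 with normexp, loess and Aquantile, 5 with 75th percentile scaling, 5 with a filter on dim probes, 13 in a fit of only the groups compared, 6 with the methods' t-test after adjustment, 0 at an adjusted p under 0.001 and 4-fold, and between 0 and 2 when a replicate was left out (0 without replicate 1 or 3). For Ito cells the 0 calls became 1 with the methods' t-test, adjusted or at an unadjusted p under 0.001, and 0 to 11 when a replicate was left out, 11 without replicate 4. For Kupffer cells that range was 0 to 6, 6 without replicate 4. For TP against TM the 2 calls became 1 with 75th percentile scaling, the filter on dim probes, only the groups compared, both forms of the methods' t-test or the 4-fold rule, and 1 to 8 when a replicate was left out, 8 without replicate 4. For control Ito against endothelial cells the 15 became 24 with only the groups compared, 9 with the unadjusted t-test, 1 with the 4-fold rule, and 6 to 14 when a replicate was left out. For control Kupffer against endothelial cells the 22 became 13 and 9 with those last rules, and for Kupffer against Ito cells the 14 became 6 with the adjusted t-test, 4 unadjusted and 0 with the 4-fold rule, and 2 to 15 when a replicate was left out. TM against control Kupffer cells had 28 with the unadjusted t-test in place of 49, and TP against TME Kupffer cells kept within 1.5 times of its 47 calls under all alternatives. The 0 differences of the TME change between cell types became 2 with either normexp setting and 0 to 2 when a replicate was left out. For most of these settings the share of all probes called is not given, so the counts are no result about the members. The cause of these shifts was not tested.

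With the array as a block, a fixed term was used for differences within an array and a consensus correlation of 0.0793 for the others. By the fixed term the calls were 1 for TME against control endothelial cells, 0 for Ito, 0 for Kupffer and 3 for TP against TM. By the correlation they were 15, 22 and 12 among control fractions and 49 and 47 for the tumor comparisons. Of 3330 alternatives for named genes 3165 stayed on their side of the threshold, 89 lost the call and 76 gained it. No difference called on either side changed sign, and 135 differences called on neither did. Dim probes give bounds only, dye and slide cannot be told apart from several groups, and 4 samples a group limit what a missed call shows.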
